A study of Oryctolagus cuniculus with 57 samples.

Results

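At day 35, the age of weaning, the ileum of 10 FF rabbits was compared with the ileum of 10 FFab rabbits. These 20 rabbits, chosen by their labels of treatment and day alone, were 20 of the 57 rabbits of the series. FF pups had been offered in the nest feces of unrelated does without antibiotics, and FFab pups feces of unrelated does under tetracycline and tiamulin. The mother's own feces were kept from the pups in both groups, as in the NF group, which received no feces at all. NF rabbits of day 35 (9 of 10 in the fit) and the FF and FFab rabbits of day 49, with 9 rabbits in each of the latter, are given below only where they bear on the same genes. All were commercial hybrid rabbits. Total RNA of each ileum had been labelled with Cy3 and hybridized to 1 one-colour rabbit array. The comparison asks whether the ileal transcriptome of the pups differed with the antibiotic treatment of the does whose feces lay in the nest. Feces were offered by nest and the nest of each rabbit is not given in the labels, so rabbits were treated as independent.

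Bile acids leave the ileal lumen through the sodium-dependent transporter SLC10A2, are bound in the enterocyte by FABP6 and pass to the blood through the exporter formed by SLC51A and SLC51B. Inside the cell they bind the nuclear receptor NR1H4, also known as FXR, which switches on the hormone gene FGF19 and the repressor gene NR0B2, and FGF19 then acts on the liver through FGFR4 and its partner KLB to restrain bile acid synthesis. Gut bacteria deconjugate and convert bile acids. MHC class I molecules, with B2M as their light chain, present at the cell surface peptides that are cut by the immunoproteasome, moved by TAP1 and trimmed by ERAP1.

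FGF19 was the only gene of 8035 that passed the threshold, an adjusted p under 0.05 in limma with a log2 difference beyond 0.5, and it was higher in FF. This is 0.0124% of the genes tested. At an unadjusted p under 0.05, 251 genes were higher in FF, 3.12% of the genes, and 259 were lower, 3.22%, and by sign alone 4063 genes, or 50.6%, were higher in FF. No gene had FF and FFab values that did not overlap. A level here is the log2 of the quantile-normalized signal of 1 probe per gene, and a difference is the FF mean minus the FFab mean on that log2 scale, with its standard error (SE). The spots above background ranged from 66% to 79.3% in FF and from 67% to 83.7% in FFab, and each array correlated with the others of its group at a mean r of 0.954 to 0.972.

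Before the single genes, the arrays were checked for markers of the tissue, and 3 FFab rabbits of day 35 stood apart. FABP6 and SLC10A2 mark the distal small intestine. FABP6 lay between 19.05 and 19.29 in the 10 FF rabbits and between 19.19 and 19.29 in 7 FFab rabbits, but read 13.92, 11.11 and 8.58 in the remaining 3. SLC10A2 read 4.96, 2.04 and 3.05 in the same 3 rabbits, against 11.49 to 13.82 in FF and 12.36 to 13.40 in the other FFab rabbits, and was not above background in 2 of the 3. Over the 56 arrays of the fit, 7 were more than 3 log2 units under the median in both genes. They were the 3 FFab rabbits, 1 NF rabbit of day 35, 2 FFab rabbits and 1 NF rabbit of day 49, and no FF rabbit.

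The same arrays were high in markers of the proximal small intestine. The mean log2 level over the 9 measured proximal markers, among them FABP1, lay between 12.28 and 12.71 in the 3 FFab rabbits and between 10.42 and 11.28 in the other 7 FFab rabbits. The mean over the 10 measured ileum markers, FGF19 among them, was 9.94 to 10.67 in these 3 rabbits and 12.53 to 13.36 in the other 7. That mean holds FABP6 and SLC10A2, which set the 3 rabbits apart, and over its other 8 genes it was 10.97 to 11.04 in the 3, 11.72 to 12.72 in the other 7 and 11.94 to 13.40 in FF. FF rabbits 82, 88 and 90 also had high proximal markers, with means of 12.08, 12.63 and 12.48, while their ileum marker means lay, as in all of FF, between 12.64 and 13.90. In all, 13 of the 56 arrays had a proximal marker mean above 12, with no array between 11.52 and 12.04, and all 7 arrays low in ileal markers were among them. Of other tissues, the mean over 4 pancreas markers ranged from 6.47 to 7.65 in FF and from 6.17 to 7.65 in FFab, and that over 13 liver markers from 7.09 to 8.08 and from 6.78 to 7.73. The mean over 9 colon and cecum markers was 9.12 to 9.99 in FF, 9.18 to 9.40 in the other 7 FFab rabbits and 8.73 to 8.86 in the 3. ALB of the liver, PRSS1 and CPA1 of the pancreas, ADIPOQ of fat, and VIL1 and CUBN of enterocytes were not among the genes tested.

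The comparison was therefore also made without the 7 arrays low in ileal markers, which left 10 FF and 7 FFab rabbits of day 35, and without the 13 arrays high in proximal markers, which left 7 and 7. Both were chosen after the values were seen. Without the 7 arrays, 7 genes passed, 0.0871% of those tested, with 1 higher and 6 lower in FF. At an unadjusted p under 0.05, 3.9% of the genes were then higher and 5.4% lower. Without the 13 arrays no gene passed in limma, a share of 0, and 293 genes (3.65%) were higher and 469 (5.84%) lower at an unadjusted p under 0.05. Whether the stretch of intestine sampled differed between rabbits was not tested.

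FGF19 encodes the hormone by which the ileum signals bile acid uptake to the liver. It is read here from 1 probe of 60 bases, shown because the result rests on it, and it shares no stretch of 20 bases with the probe of another gene. The probe sequence, 5′ to 3′ as in the deposited files, holds 20 codons without a stop when read from its first base.
FGF19 probe: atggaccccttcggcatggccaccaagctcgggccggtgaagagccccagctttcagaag

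In FF the lowest, median and highest FGF19 levels were 7.51, 9.71 and 12.63, and in FFab 5.48, 6.95 and 10.36. All 10 FF rabbits lay above the FFab median, and the ranges overlapped between 7.51 and 10.36, where 3 rabbits of FFab were found with the lower FF rabbits. The mean was 9.81 ± 1.56 (SD, n = 10) in FF and 7.14 ± 1.51 (SD, n = 10) in FFab. The difference of 2.67 ± 0.54 (SE; 95% interval 1.59 to 3.75) is a 6.35-fold higher signal in FF, with an adjusted p of 0.0322 in limma. This SE and interval pool the spread of the 6 groups of the fit, and FGF19 varied less in FF and FFab at day 49. With only the 20 arrays of FF and FFab at day 35, the difference of 2.67 had an SE of 0.65 and an adjusted p of 0.514 in limma. Arrays had been run on 9 slides, and within slides FF was higher on 7 of 9, with a mean difference of 2.74. The highest FGF19 levels belonged to FF rabbits 82, 90 and 88, the same 3 rabbits that were high in proximal markers.

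The FGF19 call depended on single rabbits. With 1 of the 20 rabbits left out at a time, the difference stayed between 2.35 and 3.02, and the adjusted p in limma ranged from 0.00251 to 0.141. The call was lost, at an adjusted p of 0.0572 to 0.141 in limma, when any 1 of 12 rabbits was left out. These were the FF rabbits with FGF19 levels of 8.87, 10.13, 10.34, 10.65, 11.51 and 12.63 and the FFab rabbits with levels of 5.48, 5.65, 6.01, 6.28, 6.60 and 7.30. Without the 7 arrays low in ileal markers, the FGF19 difference was 2.49 ± 0.61 with an adjusted p of 0.0747 in limma. Without the 13 arrays high in proximal markers, it was 1.72 ± 0.58 with an adjusted p of 0.318 in limma.

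**Figure D1:**
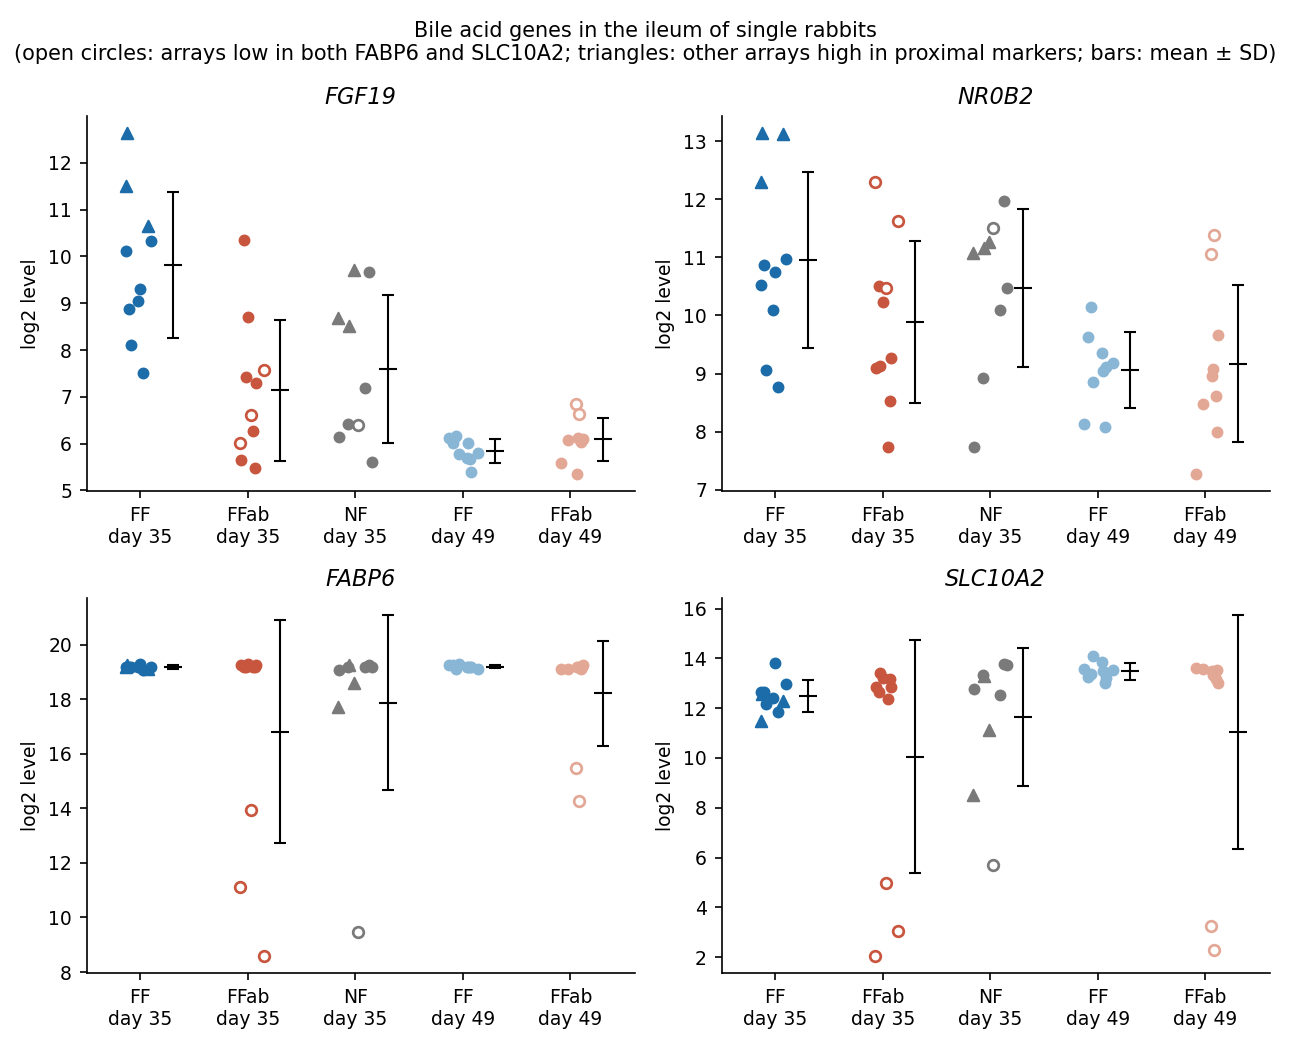
Log2 levels (y axis) of FGF19, NR0B2, FABP6 and SLC10A2 in single rabbits by treatment and day (x axis). Points are rabbits, open circles the arrays low in both FABP6 and SLC10A2, triangles other arrays high in proximal markers, and bars the mean ± SD. FGF19 in FF at day 35 lies between 7.51 and 12.63, with the triangles on top, while FABP6 and SLC10A2 separate the open circles from the other rabbits.

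The NF rabbits of day 35, with 9 arrays in the fit, had an FGF19 mean of 7.59. The FF mean minus the NF mean was 2.22 ± 0.55, which did not pass in limma (adjusted p = 0.169), and NF minus FFab was 0.45 ± 0.55. These comparisons share the FF or the FFab rabbits with the one above. At day 49, FGF19 lay between 5.39 and 6.15 in FF and between 5.35 and 6.84 in FFab, under the lowest FF value of day 35. The difference of FF and FFab at day 49 was -0.25 ± 0.57, with an SE pooled with the more variable groups of day 35. The FGF19 difference at day 35 exceeded that at day 49 by 2.91 ± 0.78, which had an unadjusted p of 0.000479 but did not pass over all genes in limma (adjusted p = 1). Neither the day 49 comparison nor the difference between the days gave a gene past the threshold in limma, a share of 0 in each. At an unadjusted p under 0.05, 1.13% of the genes were higher and 1.26% lower at day 49, and the difference between the days gave 1.42% and 1.53%.

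Bile acid signalling was followed over 13 measured genes of a list of 17. FGF19 passed the threshold, 1 further member (NR1I3) had an unadjusted p under 0.05, and 6 of the 13 were higher in FF by sign, beside 50.6% of all genes. The median of the 13 differences was -0.0011. NR0B2, the repressor that NR1H4 induces, ranged over 8.77, 10.81 and 13.13 in FF (lowest, median, highest) and over 7.74, 9.75 and 12.29 in FFab. Its difference was 1.07 ± 0.56 (95% interval -0.05 to 2.19; adjusted p = 0.796 in limma), and the ranges overlapped over most of their length. The 3 FFab rabbits low in ileal markers were 3 of the 4 highest in FFab, at 10.47 to 12.29, and the NR0B2 difference was 1.74 ± 0.52 without the 7 low arrays (adjusted p = 0.143 in limma) and 0.93 ± 0.48 without the 13 arrays high in proximal markers (adjusted p = 0.537).

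The receptor NR1H4 itself lay between 10.32 and 11.70 in FF and between 9.17 and 11.27 in FFab. The difference of 0.36 ± 0.29 turned to -0.10 ± 0.19 without the 7 low arrays, in which the 3 FFab rabbits read 9.17 to 10.07, and was 0.10 ± 0.17 without the 13 arrays high in proximal markers. NR1I3, the xenobiotic receptor CAR, was lower in FF by sign, with medians of 5.90 and 6.48 and a difference of -0.39 ± 0.17 (adjusted p = 0.69 in limma). VDR, the vitamin D receptor, which also binds lithocholic acid, differed by -0.24 ± 0.17. CYP27A1, which starts the alternative route of bile acid synthesis, differed by -0.23 ± 0.20. These 3 differences were -0.53 ± 0.17 for NR1I3, -0.43 ± 0.18 for VDR and -0.57 ± 0.22 for CYP27A1 without the 13 arrays high in proximal markers, and none passed in limma.

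The remaining 7 signalling genes lay close to 0. They were the receptors NR1I2, RXRB, GPBAR1 and FGFR4, the FGF19 partner KLB, and the liver enzymes CYP7A1 and CYP8B1, with differences from -0.07 to 0.07. CYP8B1 was above background in 7 FF and 6 FFab rabbits. Their range was -0.03 to 0.81 without the 7 low arrays, with CYP8B1 the highest. The CYP7A1 and RXRB readings are doubtful, since the probe of each shares at least 20 bases with 1 probe of another gene.

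FGF19 and NR0B2, both targets of NR1H4, were set against each other over the 20 rabbits, as 1 relation. Pearson's r was 0.661 (two-sided permutation test, p = 0.00162) and Spearman's rho 0.674 (permutation p = 0.00141). Within FF r was 0.906 (permutation p = 0.00054), and within FFab it was 0.274 (permutation p = 0.448). Without the 2 rabbits farthest from the median FGF19, FF rabbits 82 and 90, r was 0.506 (permutation p = 0.0322). The 3 FFab rabbits low in ileal markers had high NR0B2 for their FGF19. Over the 17 rabbits without them r was 0.902 (permutation p = 1e-05, the smallest that 100000 permutations can give), and over the 14 rabbits not high in proximal markers r was 0.864 (permutation p = 0.00012). Both sets of arrays were chosen after the values were seen, and both leave out these 3 rabbits, which lay off the band of the others. A higher r without them follows from that, and the permutation p-values do not account for the choice.

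**Figure D2:**
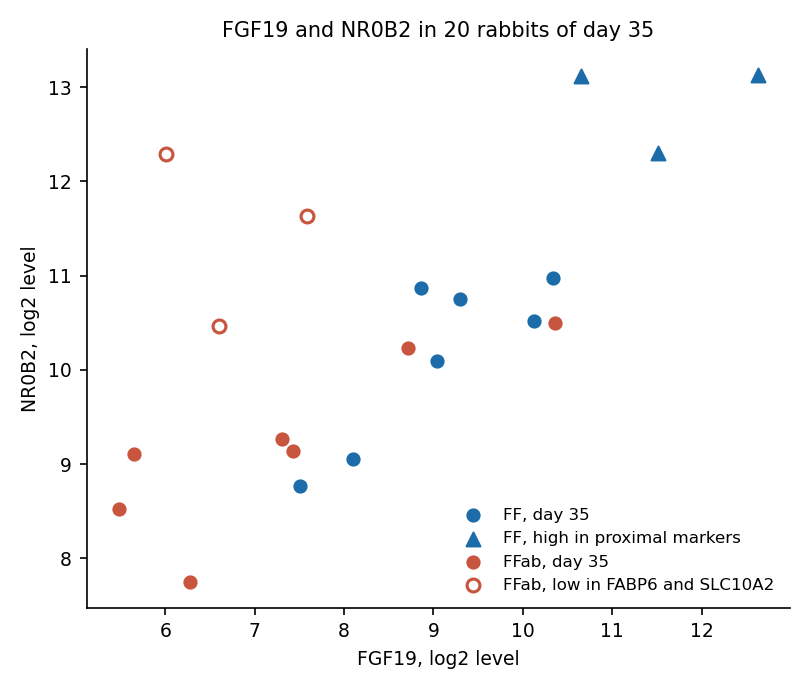
Log2 level of NR0B2 (y axis) against that of FGF19 (x axis) in the 20 rabbits of day 35, with 1 point per rabbit. The triangles are FF rabbits 82, 88 and 90, high in proximal markers, and the open circles the 3 FFab rabbits low in FABP6 and SLC10A2, which lie above the band of the other rabbits (r = 0.902 without the open circles, 0.661 with all).

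Bile acid transport was measured by 9 of 12 listed genes, and none passed the threshold or had an unadjusted p under 0.05. By sign 7 of the 9 were higher in FF, beside 50.6% of all genes, with a median difference of 0.28. The uptake carrier SLC10A2 (difference 2.43 ± 1.40), the binding protein FABP6 (2.37 ± 1.20), and the export subunits SLC51A (0.81 ± 0.48) and SLC51B (0.59 ± 0.33) were all low in the 3 FFab rabbits low in ileal markers. SLC10A2 was not above background in 2 of these 3, so its difference there has no exact size. The FF and FFab medians were 12.50 and 12.76 for SLC10A2, 19.19 and 19.19 for FABP6, 13.36 and 13.31 for SLC51A, and 15.17 and 14.96 for SLC51B.

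The 4 differences turned, without the 7 low arrays, to -0.44 for SLC10A2, -0.03 for FABP6, -0.17 for SLC51A and -0.11 for SLC51B. The first 2 genes chose these arrays, so their values are a description. FABP6 was among the 5 brightest probes in each of the 17 rabbits kept, where quantile normalization sets a value by its rank, so its equal medians and small difference cannot show whether the groups differed there. Over the other 7 genes the list mean differed by 0.23 ± 0.14, and by 0.014 ± 0.11 without the 7 low arrays. The other 5 transport genes, ABCB4, SLCO2B1, ABCC3, ABCC4 and ABCB11, differed by -0.07 to 0.28, and ABCB11, the bile salt pump of the liver, was above background in 4 FF and 6 FFab rabbits.

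**Figure D3:**
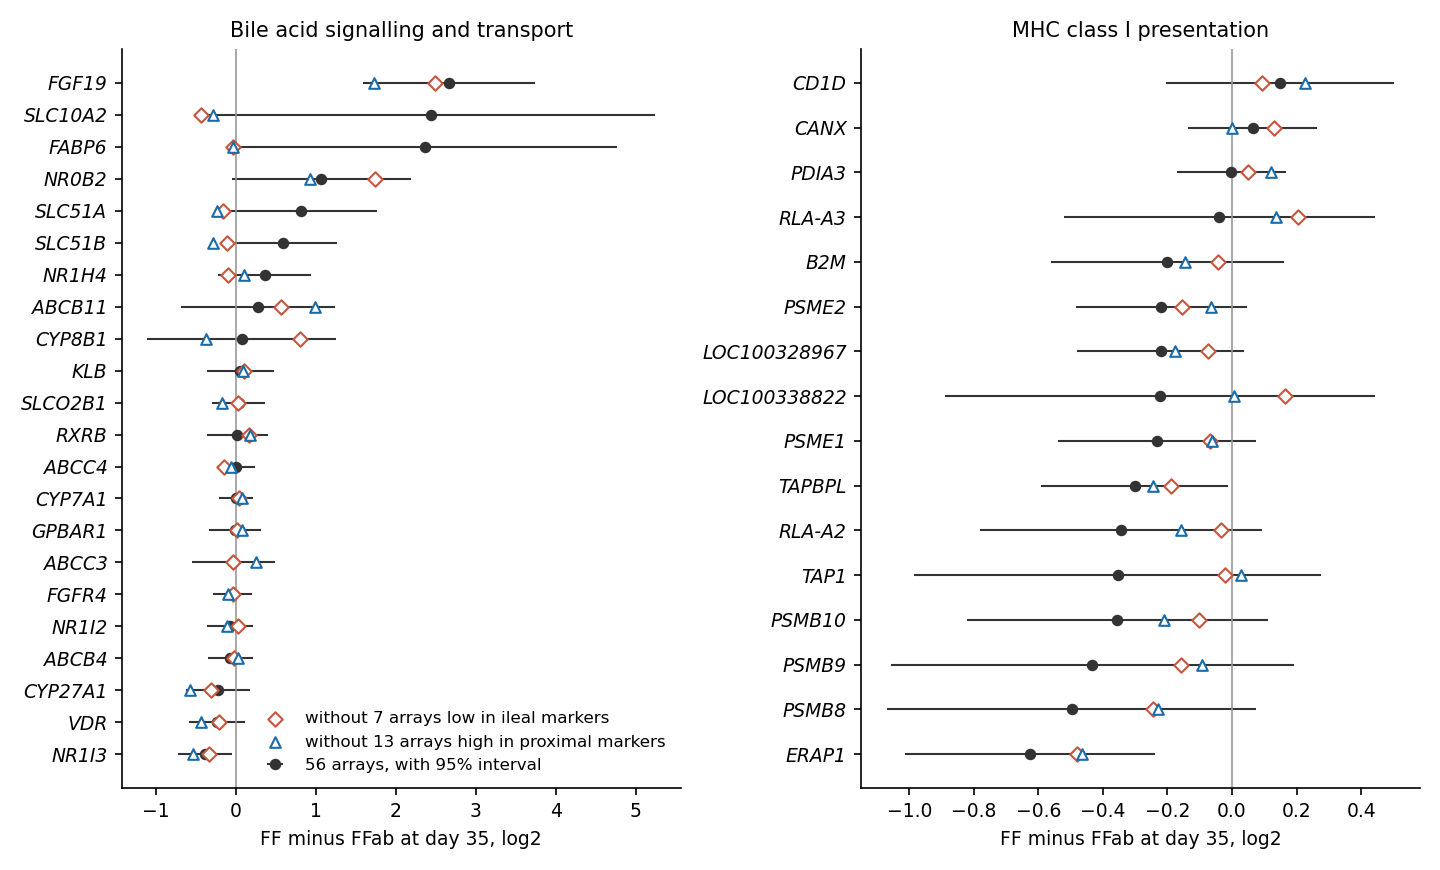
Difference of FF minus FFab at day 35 (x axis, log2) for each measured member (y axis) of the bile acid lists and of MHC class I presentation, as points with 95% intervals over 56 arrays. Open diamonds leave out the 7 arrays low in ileal markers and open triangles the 13 high in proximal markers. The interval of FGF19, 1.59 to 3.75, lies to the right of 0, while the diamonds of SLC10A2, FABP6, SLC51A and SLC51B fall to -0.44, -0.03, -0.17 and -0.11.

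Of the genes of MHC class I presentation, 16 of 24 listed were measured. None passed the threshold, 2 were lower at an unadjusted p under 0.05, where 3.22% of all genes were, and 14 of 16 were lower in FF by sign, where 50.6% of all genes were higher, with a median difference of -0.23. The mean log2 level over the 16 genes was 12.74 ± 0.39 (SD) in FF and 12.98 ± 0.50 in FFab, a difference of -0.24 ± 0.20, and the mean was higher in FF on 2 of 9 slides. In bulk RNA of the ileum, fewer cells of a type and less RNA per cell cannot be told apart.

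ERAP1, the peptidase that trims peptides in the endoplasmic reticulum, had the smallest p of the list. Its levels were 7.14, 7.74 and 8.47 in FF and 7.77, 8.31 and 9.33 in FFab, so that FF lay lower with overlapping ranges. The difference was -0.63 ± 0.19 (adjusted p = 0.37 in limma), and it was higher in FF on 1 of 9 slides. TAPBPL, an editor of the loaded peptides, differed by -0.30 ± 0.14 (adjusted p = 0.761 in limma). The immunoproteasome subunits PSMB8, PSMB9 and PSMB10 differed by -0.50 ± 0.29, -0.43 ± 0.31 and -0.35 ± 0.23, and the proteasome activators PSME1 and PSME2 by -0.23 ± 0.15 and -0.22 ± 0.13. The transporter TAP1 differed by -0.35 ± 0.31, the rabbit class I genes RLA-A2 and LOC100328967 by -0.34 ± 0.22 and -0.22 ± 0.13, and B2M by -0.20 ± 0.18. The other 5 members, CD1D, CANX, RLA-A3, PDIA3 and LOC100338822, differed by -0.22 to 0.15. Class I genes have near-identical copies, so a probe may read more than 1 of them, and the PDIA3 probe shares 20 bases with 2 probes of other genes.

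The 3 FFab rabbits low in ileal markers were high in several of these genes, for example at 12.36 to 12.84 for PSMB8 and 10.56 to 11.66 for TAP1, where the medians of the other 7 FFab rabbits were 11.44 and 9.79. High levels were not confined to these 3, since 1 of the other 7 read 13.49 for PSMB8 and 11.66 for TAP1. The highest list mean of FFab, 13.77, also belonged to 1 of the other 7. Without the 7 low arrays the list mean differed by -0.06 ± 0.23, 5 of 16 genes were higher in FF, and ERAP1 differed by -0.48 ± 0.20, PSMB8 by -0.25 ± 0.30 and TAP1 by -0.02 ± 0.31. The list mean differed by -0.08 ± 0.26, and TAP1 by 0.03 ± 0.34, without the 13 arrays high in proximal markers.

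MHC class II presentation, measured by 13 genes, had means of 9.51 ± 0.27 in FF and 9.51 ± 0.29 in FFab, and no gene of it had an unadjusted p under 0.05. The 36 measured genes of the interferon response had means of 8.72 ± 0.72 and 8.85 ± 0.60, a difference of -0.13 ± 0.30. Of these genes, 12 were higher and 24 lower by sign, where 50.6% of all genes were higher, and none had an unadjusted p under 0.05. DDX60, an RNA sensor that interferon induces, ranged over 4.85, 6.30 and 10.19 in FF and 5.25, 7.92 and 9.75 in FFab, with a difference of -1.14 ± 0.66. GBP1, a guanylate-binding protein, differed by -0.72 ± 0.50. At day 49, in other rabbits, the mean of the interferon list differed by 0.95, and the difference between the days was not tested for the list.

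The smallest p of all genes belonged to LOC100358851, which the files describe as a PrdX-deacylase domain 1-like gene. Its levels were 12.25, 12.50 and 12.70 in FF and 11.99, 12.16 and 12.30 in FFab, so that only the lowest FF rabbit reached into the FFab range. The difference of 0.34 ± 0.07 had an adjusted p of 0.0322 in limma but stayed under the minimum of 0.5. It was higher in FF on 9 of 9 slides. It was 0.37 ± 0.07 without the 7 low arrays (adjusted p = 0.027 in limma) and 0.42 ± 0.08 without the 13 high in proximal markers (adjusted p = 0.0186). Its 5 probes gave differences of 0.31 to 0.37.

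NPL, a lyase that breaks down sialic acid, read 4.30, 6.21 and 10.7025 in FF and 3.61, 4.42 and 6.16 in FFab. It was above background in 10 FF and 4 FFab rabbits. The files describe its probe as unknown, and the study had called NPL between the days in FF, from arrays that include these FF rabbits. The p of NPL is not free of that earlier call. The difference of 2.19 ± 0.47 had an adjusted p of 0.0639 in limma, and with the slide as a block it was 2.27 with an adjusted p of 0.0331. The FF rabbits high in proximal markers were the top of NPL, and without the 13 such arrays the difference was 1.06 ± 0.37 (adjusted p = 0.338 in limma). INMT, a methyltransferase of amines such as tryptamine, read 6.80, 8.01 and 9.57 in FF and 3.20, 5.94 and 8.28 in FFab. All 10 FF rabbits were above the FFab median of INMT, and the difference was 2.06 ± 0.54 (adjusted p = 0.238 in limma).

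PACC1, an acid-sensitive chloride channel, read 6.18, 6.47 and 6.77 in FF and 5.05, 5.92 and 6.40 in FFab, all FF rabbits above the FFab median. Its difference was 0.58 ± 0.13 (adjusted p = 0.0955 in limma), and 0.59 with the slide as a block (adjusted p = 0.0331). The other genes among the 12 higher in FF with the smallest p had adjusted p-values of 0.258 to 0.313. They were SUGT1, a co-chaperone (0.22 ± 0.06), DTD2, a proofreading deacylase of transfer RNA (0.25 ± 0.07), and UTP15, a factor of ribosome assembly (0.32 ± 0.09). RGCC, a regulator of the cell cycle (0.72 ± 0.21), SH3BGRL2 (0.70 ± 0.20), the sulfate transporter SLC26A2 (0.66 ± 0.19) and SLC35G1 (0.84 ± 0.24) completed them. The SH3BGRL2 difference was 0.37 ± 0.16 without the 7 low arrays, whose 3 FFab rabbits read 8.68 to 9.38. Without the 13 arrays high in proximal markers SH3BGRL2 differed by 0.23 ± 0.17, DTD2 by 0.11 ± 0.07, SLC26A2 by 0.35 ± 0.22 and SLC35G1 by 0.56 ± 0.21. The RGCC probe shares 20 bases with 4 probes of other genes.

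**Figure D4:**
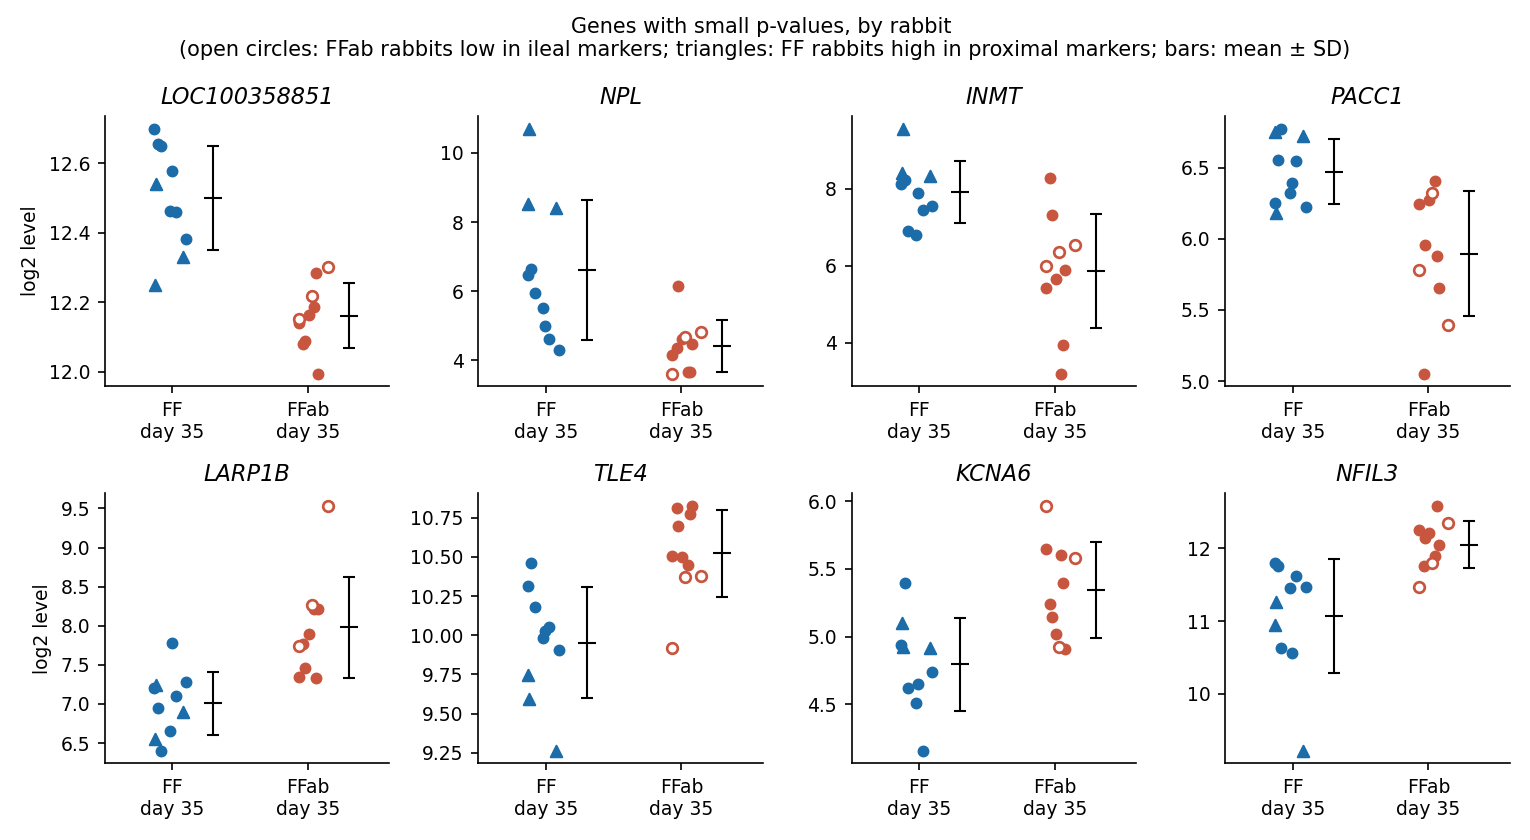
Log2 levels (y axis) of 8 genes with small p-values in single FF and FFab rabbits of day 35 (x axis), with means ± SD as bars. Open circles are the 3 FFab rabbits low in ileal markers, and triangles FF rabbits 82, 88 and 90. The groups overlap in each panel, for example in LOC100358851 between 12.25 and 12.30.

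Among the genes lower in FF by sign, none passed the threshold over the 56 arrays. LARP1B, an RNA-binding protein, read 6.40, 7.03 and 7.78 in FF and 7.34, 7.83 and 9.54 in FFab. Every FF rabbit lay under the FFab median and FF was lower on all 9 slides. The LARP1B difference was -0.97 ± 0.23 (adjusted p = 0.146 in limma), and -0.70 ± 0.23 without the 13 arrays high in proximal markers. TLE4, a co-repressor of transcription, had medians of 10.01 and 10.50 and a difference of -0.57 ± 0.14 (adjusted p = 0.179 in limma).

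NFIL3 is a repressor of transcription that acts on the circadian clock and in immune cells. It read 9.21, 11.36 and 11.80 in FF and 11.47, 12.09 and 12.59 in FFab, and its 5 probes gave differences from -1.01 to -0.97. All 10 FF rabbits lay under the FFab median of NFIL3, and FF was lower on all 9 slides. The difference was -0.98 ± 0.25 (adjusted p = 0.238 in limma). Of the 6 measured genes of the circadian clock list, which holds NFIL3, 3 were higher and 3 lower by sign. Of the 6, 1 was lower at an unadjusted p under 0.05, where 3.22% of all genes were.

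The other genes described among the 12 lower in FF with the smallest p had adjusted p-values of 0.198 to 0.313 in limma. KCNA6, a potassium channel, differed by -0.55 ± 0.14, TMEM89 by -0.63 ± 0.16, and SLC11A2, the iron transporter DMT1, by -0.45 ± 0.12. SLC11A2 lay between 8.47 and 9.14 in FF and between 8.81 and 9.52 in FFab. The Wnt co-receptor LRP5 differed by -0.31 ± 0.08, the ephrin ligand EFNA1 by -0.60 ± 0.16, the ribosome factor EFL1 by -0.57 ± 0.16 and TRAK1, an adaptor for mitochondrial transport, by -0.51 ± 0.15. INSIG2, which holds back the sterol sensor of the cell, read 9.94, 10.63 and 11.13 in FF and 10.61, 11.08 and 12.16 in FFab, with a difference of -0.64 ± 0.18. The KCNA6 probe shares 20 bases with 1 probe of another gene.

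The 7 genes that passed without the arrays low in ileal markers were named after their values were seen. STK17A, a kinase linked to cell death, was higher in FF by 0.78 ± 0.16 (adjusted p = 0.027 in limma). It lay between 8.63 and 9.92 in FF and between 7.96 and 8.67 in the 7 FFab rabbits kept, while the 3 left out read 9.41 to 9.77. Over all 56 arrays the STK17A difference was 0.43 ± 0.19 (adjusted p = 0.726 in limma). SMPDL3A, a phosphodiesterase of lipids and nucleotides, was lower, with a difference of -0.98 ± 0.20 (adjusted p = 0.027 in limma), with 10.68 to 11.73 in FF and 11.54 to 12.89 in the 7 FFab rabbits. The SMPDL3A difference over all 56 arrays was -0.61 ± 0.23. TLE4 was lower as well, with a difference of -0.70 ± 0.15 (adjusted p = 0.037 in limma).

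The other 4 genes had an adjusted p of 0.0494 in limma and differences of -0.62 ± 0.14 for EBP, -0.65 ± 0.15 for LSS, -0.62 ± 0.14 for SGCD and -0.64 ± 0.14 for FHL1. EBP and LSS are enzymes of cholesterol synthesis, and SGCD and FHL1 are expressed in muscle. Over all 56 arrays these 4 differences were -0.40, -0.32, -0.43 and -0.30. With the 13 arrays high in proximal markers left out, STK17A differed by 0.68 ± 0.17, SMPDL3A by -0.89 ± 0.22, TLE4 by -0.52 ± 0.15, EBP by -0.43 ± 0.13, LSS by -0.55 ± 0.16, SGCD by -0.54 ± 0.15 and FHL1 by -0.49 ± 0.15, and none passed (adjusted p of 0.225 to 0.261 in limma).

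Cholesterol synthesis as a list was lower in FF by sign in 13 of 15 measured genes, where 50.6% of all genes were higher. None passed and 4 were lower at an unadjusted p under 0.05, where 3.22% of all genes were. The list mean was 9.66 ± 0.26 in FF and 9.84 ± 0.31 in FFab, a difference of -0.18 ± 0.13, and the median difference was -0.14. Leaving out the 7 low arrays, the list mean differed by -0.35 ± 0.09 and 8 of 15 genes were lower at an unadjusted p under 0.05, where 5.4% of all genes were. It differed by -0.26 ± 0.11 without the 13 arrays high in proximal markers. ACAT2, whose product joins acetyl-CoA units, read 11.77, 12.14 and 12.73 in FF and 12.42, 12.62 and 13.28 in FFab, was lower on all 9 slides and differed by -0.51 ± 0.15 (adjusted p = 0.351 in limma). Mevalonate kinase, MVK, differed by -0.38 ± 0.14. ABCA1, the cholesterol exporter, had medians of 7.47 in FF and 6.62 in FFab and a difference of 0.72 ± 0.22 (adjusted p = 0.37 in limma), and the 11 measured genes of cholesterol uptake and efflux differed in their mean by 0.13 ± 0.27.

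**Figure D5:**
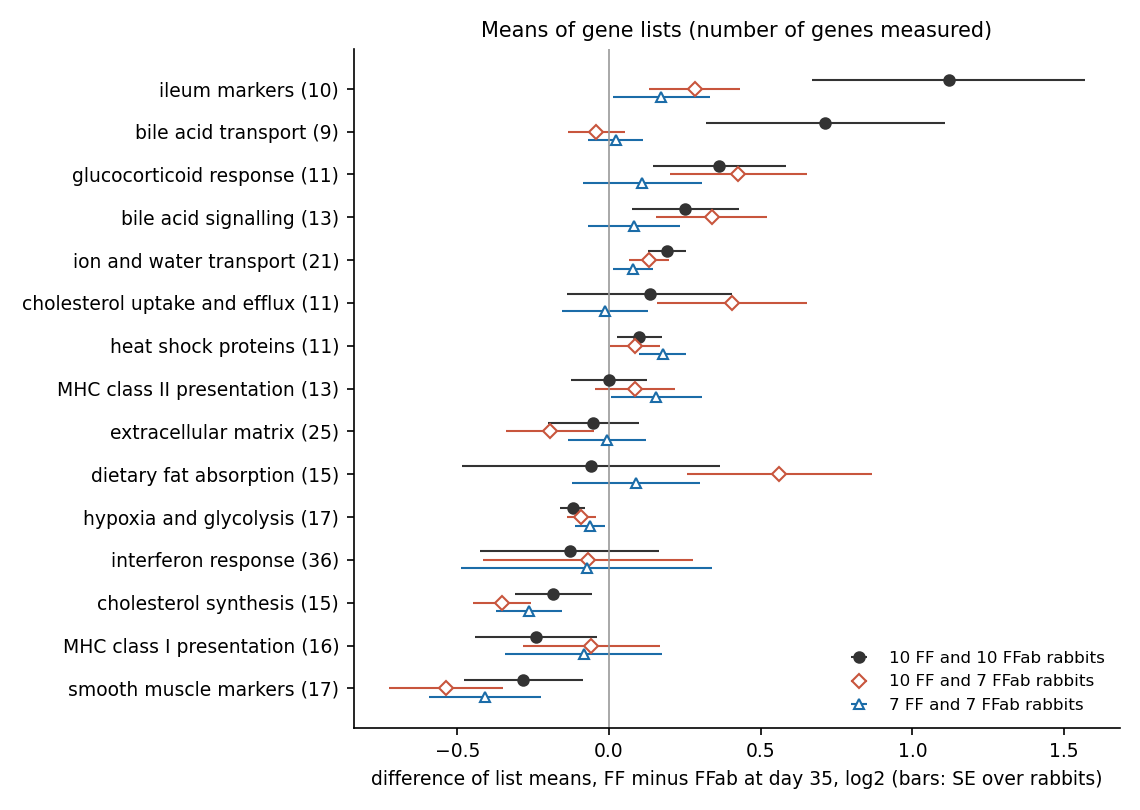
Difference of list means of FF minus FFab at day 35 (x axis, log2) for 15 gene lists (y axis, genes measured in brackets), with the SE over rabbits as bars. Circles hold 10 FF and 10 FFab rabbits, diamonds 10 and 7, and triangles 7 and 7. Ileum markers move from 1.12 to 0.28 and bile acid transport from 0.71 to -0.04 when the arrays low in ileal markers are left out. FABP6 and SLC10A2 chose those arrays and belong to both lists. Without these 2 genes the values are 0.80 and 0.41 for ileum markers and 0.23 and 0.014 for bile acid transport. FGF19 and PYY remain among these ileum markers. Of all 10 ileum markers, 5 were higher and 5 lower in FF without the low arrays, with a median difference of -0.0097.

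Dietary fat absorption depended on the arrays in the comparison. Over 15 measured genes the list mean was 12.14 ± 0.82 in FF and 12.20 ± 1.07 in FFab, a difference of -0.06 ± 0.43, with no gene at an unadjusted p under 0.05. With the 7 low arrays left out it was 0.56 ± 0.31, with 6 genes higher and 1 lower at an unadjusted p under 0.05, where 3.9% and 5.4% of all genes were, and without the 13 arrays high in proximal markers 0.09 ± 0.21. Leaving out the 7 low arrays took away the 3 FFab rabbits high in proximal markers but kept the FF rabbits high in them. FABP1 is one of the proximal markers that chose the 13 arrays, so neither difference is free of the choice of arrays. FABP1, which carries fatty acids in proximal enterocytes, read 13.25, 14.81 and 18.18 in FF and 11.40, 14.50 and 18.75 in FFab, and the 3 FFab rabbits low in ileal markers read 18.11 to 18.75. The FABP1 difference was 0.11 ± 0.89.

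Of 9 measured genes of sugar digestion and transport, 2 were higher and 7 lower by sign, where 50.6% of all genes were higher. Of the 9, 1 was lower at an unadjusted p under 0.05, where 3.22% of all genes were. SLC2A2, the basolateral glucose carrier, had medians of 6.24 in FF and 6.01 in FFab and reached 10.24 in FF, in rabbits high in proximal markers, with a difference of 1.01 ± 0.53. SLC2A2 is one of the proximal markers that chose the 13 arrays, and its difference without them was 0.12 ± 0.49. SLC5A1, the sodium-glucose carrier of the brush border, read 12.75, 13.56 and 14.30 in FF and 13.49, 14.02 and 14.73 in FFab, and differed by -0.43 ± 0.18. SLC52A3, a riboflavin transporter, had medians of 7.83 in FF and 7.16 in FFab, and a difference of 1.22 ± 0.36. All 10 FF rabbits lay above the FFab median of SLC52A3, and the adjusted p was 0.348 in limma over 56 arrays and 0.0722 without the 7 low arrays. Without the 13 arrays high in proximal markers the SLC52A3 difference was 0.94 ± 0.36 (adjusted p = 0.393 in limma).

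The ion and water transport list, with 21 genes measured, had means of 9.90 ± 0.12 in FF and 9.71 ± 0.15 in FFab, a difference of 0.19 ± 0.06, higher in FF on 8 of 9 slides. By sign 15 genes were higher and 6 lower, where 50.6% of all genes were higher. At an unadjusted p under 0.05, 2 were higher and 1 lower, where 3.12% and 3.22% of all genes were. The list mean differed by 0.13 ± 0.07 without the 7 low arrays and by 0.08 ± 0.07 without the 13 arrays high in proximal markers. CA1, a carbonic anhydrase also found in red cells and in the colon, read 6.59, 7.64 and 13.22 in FF and 5.19, 6.97 and 8.07 in FFab. Its 4 highest FF rabbits, all above 10, were not those high in proximal markers. The CA1 difference was 2.02 ± 0.66 (adjusted p = 0.399 in limma), and 2.69 ± 0.82 without the 13 arrays high in proximal markers. AQP8, a water channel, had medians of 9.46 and 8.85 and a difference of 0.71 ± 0.27, which was 0.21 ± 0.28 without the 13 arrays. SLC26A3, the chloride-bicarbonate exchanger of the colon and ileum, went the other way, with 10.75, 11.40 and 12.24 in FF and 11.54, 11.79 and 12.12 in FFab, and a difference of -0.43 ± 0.17 (adjusted p = 0.595 in limma). All 3 genes belong to the colon and cecum markers, of which 6 of 9 measured were higher by sign. At an unadjusted p under 0.05, 2 of these markers were higher and 1 lower, beside the same shares of all genes. The mean of these markers differed by 0.33 ± 0.13, was higher in FF on 7 of 9 slides, and differed by 0.16 ± 0.10 without the 7 low arrays. By sign 3 of the 9 markers were then higher and 6 lower, with a median difference of -0.21. The part of colon and cecum marker levels in the other results was not tested. The CA1 probe shares 20 bases with 1 probe of another gene, and the 11 measured red cell markers, CA1 among them, differed in their mean by 0.32 ± 0.19.

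The gut hormone gene PYY, made by L cells of the distal intestine, read 7.04, 8.27 and 9.29 in FF and 5.51, 6.90 and 8.96 in FFab. All FF rabbits lay above the FFab median. The difference was 1.33 ± 0.42 (adjusted p = 0.375 in limma), and 0.83 ± 0.40 without the 7 low arrays, in which the 3 FFab rabbits read 5.51 to 5.97. In the glucocorticoid response, 11 genes measured, the list mean differed by 0.36 ± 0.22, and by 0.11 ± 0.20 without the 13 arrays high in proximal markers. FKBP5, a glucocorticoid-induced chaperone, was above background in 9 FF and 4 FFab rabbits and differed by 1.47 ± 0.48, and by 0.90 ± 0.52 without the 13 arrays. HSD11B2, which inactivates cortisol, differed by 0.64 ± 0.23, and the glucocorticoid receptor NR3C1 by -0.26 ± 0.09. The adjusted p-values of these 3 genes in limma were 0.403, 0.509 and 0.441.

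Smooth muscle markers were lower in FF by sign in 14 of 17 measured genes, where 50.6% of all genes were higher. At an unadjusted p under 0.05, 3 were lower, where 3.22% of all genes were. The list mean was 10.98 ± 0.28 in FF and 11.26 ± 0.56 in FFab, a difference of -0.28 ± 0.20. Without the 7 low arrays it was -0.54 ± 0.19, with 13 of 17 genes lower at an unadjusted p under 0.05, where 5.4% of all genes were, and without the 13 arrays high in proximal markers -0.41 ± 0.18. The smooth muscle actin ACTA2 read 12.01, 13.08 and 13.51 in FF and 12.45, 13.37 and 14.60 in FFab (difference -0.57 ± 0.21). The myosin MYH11 differed by -0.39 ± 0.23 and desmin, DES, by -0.55 ± 0.27, and none of the 3 passed in limma. The part of muscle content in the other results was not tested. Of 25 extracellular matrix genes measured, 3 were lower at an unadjusted p under 0.05, where 3.22% of all genes were. Without the 7 low arrays 11 were lower, where 5.4% of all genes were. The list means differed by -0.05 ± 0.15 and -0.19 ± 0.15, and by -0.007 ± 0.13 without the 13 arrays high in proximal markers.

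No gene of the immune cell lists passed in limma. The counts of each such list stand beside shares of all genes of 50.6% higher by sign. At an unadjusted p under 0.05 these shares were 3.12% higher and 3.22% lower. Of 34 chemokines and cytokines, 10 were higher and 24 lower in FF by sign, with 1 higher and 2 lower at an unadjusted p under 0.05, and the list mean differed by -0.15 ± 0.15. IL15, a cytokine that sustains intraepithelial lymphocytes, read 7.73, 8.70 and 9.20 in FF and 8.37, 9.31 and 10.19 in FFab, and all FF rabbits lay under the FFab median. The IL15 difference was -0.69 ± 0.23 (adjusted p = 0.418 in limma), that of the cytokine IL17B was -0.66 ± 0.21, and that of CCR2, a chemokine receptor of monocytes, was 0.62 ± 0.29. Of 15 myeloid genes, 10 were higher and 5 lower by sign, with 1 in each direction at an unadjusted p under 0.05, and the mean differed by 0.04 ± 0.08. XCR1, a chemokine receptor of cross-presenting dendritic cells, was among the 5, with 6.83, 7.77 and 8.08 in FF and 7.58, 8.55 and 9.03 in FFab, a difference of -0.64 ± 0.21, while CSF1R, the macrophage growth factor receptor, differed by 0.34 ± 0.17. Of 21 genes of T cells and cytotoxic lymphocytes, 9 were higher and 12 lower by sign, and CD96, the 1 with an unadjusted p under 0.05, differed by -0.61 ± 0.25. Of 14 genes of B cells and follicles, 13 were higher by sign with none at an unadjusted p under 0.05, and their mean differed by 0.27 ± 0.48.

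The 8 measured genes of mucins and goblet cells were split by sign, 4 to 4. The membrane mucin MUC12, the 1 with an unadjusted p under 0.05, where 3.22% of all genes were lower, differed by -0.83 ± 0.28. The 14 genes of tryptophan breakdown, 7 higher and 7 lower by sign, hold CYP1A1, the classical target of the aryl hydrocarbon receptor. Its medians were 8.83 in FF and 10.63 in FFab, and its difference was -1.30 ± 0.57 (adjusted p = 0.697 in limma). The CYP1A1 difference without the 13 arrays high in proximal markers was -2.45 ± 0.55 (adjusted p = 0.176 in limma).

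Hypoxia and glycolysis, with 17 genes measured, had means of 9.52 ± 0.08 in FF and 9.64 ± 0.10 in FFab, a difference of -0.12 ± 0.04, and the mean was higher in FF on 1 of 9 slides. Of its genes, 3 were lower at an unadjusted p under 0.05, where 3.22% of all genes were. The hypoxia and glycolysis mean differed by -0.09 ± 0.05 without the arrays low in ileal markers. No gene of the list was then lower at an unadjusted p under 0.05, where 5.4% of all genes were. The mean of this list differed by -0.06 ± 0.05 without the arrays high in proximal markers. Of 11 heat shock genes measured, 4 were higher at an unadjusted p under 0.05, where 3.12% of all genes were, and the list mean differed by 0.10 ± 0.07. Without the 7 low arrays 3 were higher and 3 lower, where 3.9% and 5.4% of all genes were. The heat shock mean then differed by 0.09 ± 0.08, and by 0.18 ± 0.08 without the 13 arrays high in proximal markers. The ranges of FF and FFab overlapped in the mean of each of these lists. The lists had been chosen with earlier results of these data known, so their means carry no p.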

How the data were processed

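Ileal RNA of 57 rabbits was read on one-colour Agilent arrays. The deposited intensity values of each spot, background-subtracted, came from Agilent Feature Extraction (10.10.1.1 per the file headers, 10.7.3.1 in the submitters' processing notes), and the deposited flags mark spots above background or out of line. The authors' deposited table of log2 values (33284 probes, column median 8.78) correlated with the values used here at a median r of 0.991 and served as an alternative.

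The log2 processed signals were quantile-normalized, outlier spots were left out and spots of a probe averaged. Probes were kept where 50% of spots were above background in 75% of the arrays of a group (31722 probes). Names came from RefSeq by accession or gene identifier, or from the name in the files or the study's tables, as for FGF19, and 21228 probes had no single name. The study's tables list genes that it had called in these same arrays, and 137 of the tested genes were named by them alone. The p-values of such genes, and the shares over all genes, are therefore not free of that earlier choice. The probe of median level stood for each of 8035 genes. limma 3.58.1 in R 4.3.3 fitted 6 group means over 56 arrays, with Benjamini-Hochberg adjustment, as tested on simulated data. Calls needed an adjusted p under 0.05 and a log2 difference beyond 0.5. The number of arrays limits the precision (median SE 0.144). Rabbits were grouped by treatment and day in the labels. They were treated as independent, although feces were given per nest, and litter and sex entered no test.

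Named were called genes, the 12 genes with the smallest p in each direction, all measured members of the bile acid and MHC class I lists, up to 3 members of other lists, and defining markers. Members and lists were chosen with earlier results of these data known. The settings changed were the arrays in the fit, slide, weights, scaling, background, probe filter and choice of probe, and each rabbit in turn. Results of some genes that this rule names are not reported here.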

Additional observations from a re-analysis of the deposited data

Results flagged for a closer look

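In 14 groups of values, 7.29% of those tested, 1 rabbit lay far from its group by the gap to its nearest neighbour. Chance flags about 1 in 20 such groups. In FF at day 35, 1 rabbit stood high in DDX60 at 10.19 (nearest 7.12) and in the mean of the interferon list at 10.45 (nearest 9.04). FF rabbit 88 was low in NFIL3 at 9.21 (nearest 10.56) and high in STK17A at 9.92 (nearest 9.30) and UTP15 at 10.46 (nearest 9.96). FF rabbit 87 was high in the MHC class II mean at 10.16 (nearest 9.72).

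In FFab at day 35, 1 of the 3 rabbits low in ileal markers was low in DTD2 at 10.71 (nearest 11.03) and high in LARP1B at 9.54 (nearest 8.26). Another of the 3 was low in TLE4 at 9.92 (nearest 10.37). A rabbit with ordinary ileal markers was low in MUC12 at 6.83 (nearest 8.25) and high in NPL at 6.16 (nearest 4.82). Among NF rabbits, FABP6 was low in 1 of day 35 at 9.47 (nearest 17.72) and in 1 of day 49 at 7.88 (nearest 19.12), and SLC10A2 in the latter at 4.43 (nearest 12.22).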

How the results depend on the processing

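No paired analysis was possible because rabbit numbers are unique to each rabbit and pair none across groups, so slides, which the groups shared, were the block used. Under 36 alternatives FGF19 stayed higher in FF, by 1.72 to 3.02, and passed in 18, with adjusted p-values from 0.00251 to 0.514. It was lost at 2.67 with only the 20 FF and FFab arrays, only the 29 arrays of day 35 or the probe of highest level, at 2.47 with array weights, at 2.49 without the 7 arrays low in ileal markers and at 1.72 without the 13 high in proximal markers. Leaving out 1 rabbit gave 2.35 to 3.02. The count of 1 gene became 0 with 20 or 29 arrays, array weights, the highest probe, every probe tested or the 13 arrays left out. It became 3 with slide as a fixed or random block (NPL and PACC1 added), 2 with 75th percentile scaling (NPL added) or the deposited table (LARP1B added), 7 without the 7 arrays (FGF19 not among them), and 0 to 2 with 1 rabbit left out. The correlation of FGF19 and NR0B2 was 0.274 within FFab. Of 72 other genes, 65 never changed sign. FABP1 turned to -0.063 with slide as a fixed block and ranged from -0.30 to 0.51 with 1 rabbit left out. Without the 7 arrays NR1H4 turned to -0.10, FABP6 to -0.034, SLC51B to -0.11, SLC10A2 to -0.44 and SLC51A to -0.17. Without the 13 arrays FABP6 turned to -0.034, SLC51B to -0.29, SLC10A2 to -0.28, SLC51A to -0.24 and TAP1 to 0.029. Both sets of arrays were chosen after seeing the data, and the cause was not tested. Of 540 values of list means, 26 (4.81%) had the other sign, 12 for MHC class II, 9 for dietary fat absorption, 2 for extracellular matrix and 1 each for bile acid transport, cholesterol uptake and the interferon response. Of 608 values of the 17 members near 0, 17.1% had the other sign.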
